A study of Mus musculus with 7 samples.

Results

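Imprinted growth genes are genes that a mouse transcribes mainly from the copy of 1 parent and whose products set fetal and postnatal growth. The 10 described here were chosen by symbol as imprinted noncoding RNAs and growth regulators other than Igf2 and Grb10. They are H19, Dlk1, Meg3, Rian, Mirg, Peg3, Cdkn1c, Mest, Plagl1 and Ndn, out of 53819 gene symbols in the deposited table. All 10 were present in the table, and all 10 passed the filter on low counts that left 14935 genes for testing. The symbols were chosen with results of this comparison already known, so their fold changes and adjusted p-values are descriptions of these libraries and support no further statement.

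RNA came from the quadriceps, the large thigh muscle, of wild-type male C57BL/6J mice, an inbred strain. The mice were 8 weeks old when they were injected in the tail vein with 200 µl of AAV8, a serotype of adeno-associated virus that favours the liver, and were sampled 54 days after it. They received AAV8-Alb-IGFBP1 in 3 libraries (AAV8-IGFBP1) and AAV8-Alb-Null in 4 libraries (AAV8-Null); the labels do not expand Alb, and IGFBP1 is a secreted protein that binds insulin-like growth factors. The series asks how raised IGFBP1 affects muscle and bone. The labels number the libraries but do not say that each came from a separate mouse, so the errors and p-values measure the spread between these libraries, which may be technical. Library totals lay between 38947493 and 51210391 estimated counts. Igfbp1, the gene that the vector is named for, had 202, 1425 and 142 counts in AAV8-IGFBP1 replicates 1, 2 and 3, against 0, 0, 0 and 8 counts in AAV8-Null replicates 1 to 4. The edgeR quasi-likelihood test gave Igfbp1 an adjusted p of 0.138, above the threshold of 0.05. DESeq2 gave it one of 0.0128 and limma-voom one of 0.314. Myofibre markers were high in every library, with summed levels of 141865 to 156100 CPM (the count scaled to the library's total, adjusted by TMM factors) in AAV8-IGFBP1 and 126591 to 145648 CPM in AAV8-Null. AAV8-IGFBP1 replicate 2 stood apart in its adipocyte markers, whose mean level (log2 CPM centred over the 7 libraries) was 1.86 there and lay between -1.05 and 0.24 in the other 6 libraries.

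Genomic imprinting marks one parental copy of a gene with DNA methylation in the germ line, and the mark is kept at control regions that silence or activate whole clusters. In the mouse, many paternally expressed genes promote growth and many maternally expressed genes restrain it. H19 is the maternally expressed long noncoding RNA beside Igf2 on chromosome 7. Both genes draw on shared enhancers, and H19 stays abundant in skeletal muscle after birth when most other imprinted genes are turned down. Meg3, Rian and Mirg are maternally expressed noncoding RNAs that lie in one direction along chromosome 12, in the domain whose paternal copy gives Dlk1.

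Several of these genes carry microRNAs, short RNAs that repress messengers through a seed. By RefSeq gene bounds (GRCm38.p6), H19, Meg3 and Mest each enclose 1 microRNA hairpin, Rian 3 and Mirg 10, and 57 hairpins lie between the start of Meg3 and the end of Mirg. Of these 57, 55 have a row in the table, and all 55 have 0 counts in every library, as has Mir675 inside H19 and Mir335 inside Mest. The libraries were made for messenger RNA, so mature microRNAs were not measured. The mature microRNAs of H19 and Mest are shown because these genes had the largest fold changes of the 10 in each direction. They are written 5′ to 3′ from RefSeq, with the seed (bases 2 to 8) in capitals.
mmu-miR-675-5p, from H19, GRCm38.p6 chr7:142577112-142577133, minus strand: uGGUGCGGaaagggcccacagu
mmu-miR-675-3p, from H19, GRCm38.p6 chr7:142577078-142577099, minus strand: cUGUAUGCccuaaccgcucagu
mmu-miR-335-5p, from Mest, GRCm38.p6 chr6:30741314-30741336, plus strand: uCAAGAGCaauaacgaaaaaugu
mmu-miR-335-3p, from Mest, GRCm38.p6 chr6:30741354-30741375, plus strand: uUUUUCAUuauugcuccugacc
None of these 4 shares its seed with another, and each seed occurs in 1 mature microRNA of the RefSeq table.

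Imprinted promoters can hold the motif TGCCGC, which the zinc-finger protein ZFP57 recognises when methylated and through which germline imprints are protected. RefSeq promoter windows (250 bases before to 50 after a start) were matched for 8 of the 10 genes; H19 and Cdkn1c had no entry. The motif was searched on both strands (TGCCGC or GCGGCA, which do not overlap in these windows). It stood in 3 of these 8 genes (37.5%), Meg3, Mest and Plagl1, and in 13.1% of 27025 genes in the table. By window it stood in 4 of 11 (36.4%), 2 of them Mest windows that overlap almost wholly, and in 11.6% of all 32851 windows. The windows had a median of 11 CpG for the members and 7 CpG for all promoters. The 3 promoters that hold it are shown with the motif in capitals. Methylation and binding were not measured, and a match is a description only.
Meg3 promoter, GRCm38.p6 chr12:109540746-109541045, plus strand: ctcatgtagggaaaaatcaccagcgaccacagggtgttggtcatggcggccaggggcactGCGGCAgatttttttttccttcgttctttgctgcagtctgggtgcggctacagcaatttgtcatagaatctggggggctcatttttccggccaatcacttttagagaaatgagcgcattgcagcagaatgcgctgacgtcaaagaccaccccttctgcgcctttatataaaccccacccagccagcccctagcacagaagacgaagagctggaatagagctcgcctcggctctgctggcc
Mest promoter, GRCm38.p6 chr6:30737800-30738099, plus strand: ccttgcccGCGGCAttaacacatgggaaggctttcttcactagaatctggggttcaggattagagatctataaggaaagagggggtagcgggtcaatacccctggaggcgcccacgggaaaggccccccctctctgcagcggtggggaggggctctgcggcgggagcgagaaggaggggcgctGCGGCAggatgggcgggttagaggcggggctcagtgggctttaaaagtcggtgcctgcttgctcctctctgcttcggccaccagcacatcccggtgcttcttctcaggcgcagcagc
Plagl1 promoter, GRCm38.p6 chr10:13090582-13090881, plus strand: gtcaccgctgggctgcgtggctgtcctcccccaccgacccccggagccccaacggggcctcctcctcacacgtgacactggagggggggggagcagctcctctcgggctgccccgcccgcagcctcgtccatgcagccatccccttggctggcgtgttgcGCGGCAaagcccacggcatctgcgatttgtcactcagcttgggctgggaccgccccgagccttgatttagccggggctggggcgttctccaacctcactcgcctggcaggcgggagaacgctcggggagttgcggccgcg

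H19 was the member with lower values in every AAV8-IGFBP1 library. H19 had 291, 222 and 224 CPM in AAV8-IGFBP1 replicates 1, 2 and 3, against 436, 378, 413 and 374 CPM in AAV8-Null replicates 1 to 4. The groups did not overlap, and the highest AAV8-IGFBP1 library, replicate 1, lay below the lowest AAV8-Null library, replicate 4. The mean was 245 ± 39.2 CPM in AAV8-IGFBP1 (SD, n = 3) and 400 ± 29.5 CPM in AAV8-Null (SD, n = 4), a log2 fold change of -0.71 with an SE of 0.11 (edgeR quasi-likelihood adjusted p = 0.0290), or 1.63-fold lower in AAV8-IGFBP1. H19 was 1 of 10 members past the threshold of 0.05, where 0.556% of all genes tested passed in either direction and 0.194% were lower. It was also 1 of 10 whose groups did not overlap, as did 12.3% of all genes tested (6.01% with AAV8-IGFBP1 lower). DESeq2 gave an adjusted p of 8.71e-08 and limma-voom one of 0.0397.

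Whether H19 passed depended on which libraries were in the fit. With 1 library left out the log2 fold change ran from -0.85 (without AAV8-IGFBP1 replicate 1) to -0.64 (without AAV8-IGFBP1 replicate 2). The edgeR adjusted p passed the threshold in 3 of these 7 fits, those without AAV8-IGFBP1 replicate 1 (0.0213), AAV8-Null replicate 2 (0.0496) and AAV8-Null replicate 4 (0.0417). It missed it without AAV8-IGFBP1 replicate 2 (0.0808) or 3 (0.0737) and without AAV8-Null replicate 1 (0.0918) or 3 (0.0657), and without both libraries numbered 3 (0.141). The direction was the same in each of these fits.

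H19 was set against its neighbours within each library, a ratio that needs no scaling between libraries and was chosen after its values were seen. Igf2, the paternally expressed growth factor gene of the same domain, had 13.7, 12.8 and 10.2 CPM in AAV8-IGFBP1 and 9.24, 11.4, 13.3 and 10.8 CPM in AAV8-Null. These Igf2 values overlap (log2 fold change 0.13, SE 0.14, edgeR adjusted p = 0.753). The ratio of H19 to Igf2 counts was 21.3, 17.2 and 21.9 in AAV8-IGFBP1 replicates 1, 2 and 3, against 47.1, 33.0, 31.1 and 34.6 in AAV8-Null replicates 1 to 4. Nctc1, a noncoding RNA gene of the same region, had 76.7, 83.0 and 76.6 CPM in AAV8-IGFBP1 and 80.9, 81.2, 89.9 and 88.3 CPM in AAV8-Null, groups that overlap (log2 fold change -0.11, SE 0.06, edgeR adjusted p = 0.515). The ratio of H19 to Nctc1 counts was 3.79, 2.67 and 2.92 in AAV8-IGFBP1, against 5.39, 4.65, 4.59 and 4.24 in AAV8-Null. Both ratios were lower in each AAV8-IGFBP1 library than in any AAV8-Null library, and a ratio shows unequal change without showing that either neighbour was constant.

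**Figure D1:**
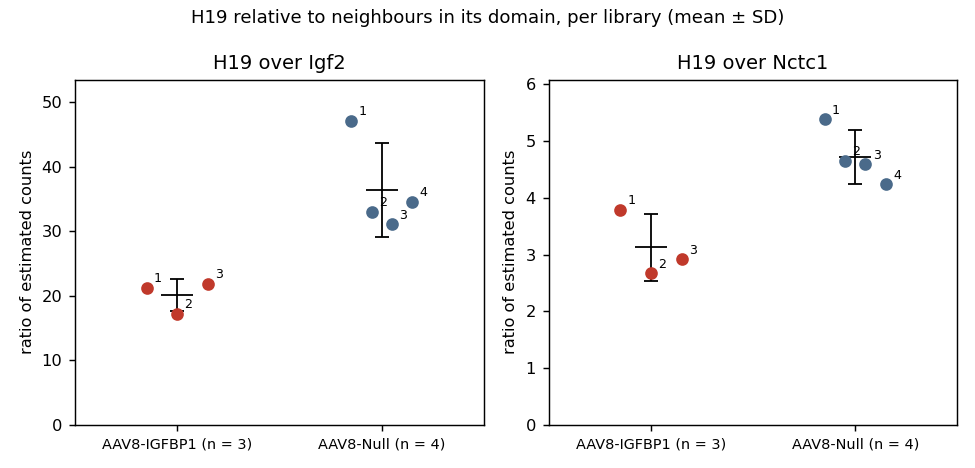
Ratio of estimated counts of H19 to Igf2 (left) and to Nctc1 (right) on linear axes, with AAV8-IGFBP1 libraries in red and AAV8-Null libraries in blue, points numbered by replicate, and black marks for the mean ± SD. H19 over Igf2 lies at 17.2 to 21.9 in AAV8-IGFBP1 and at 31.1 to 47.1 in AAV8-Null.

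Marker levels of several cell types stood beside the H19 grouping. Satellite cells, the muscle stem cells, are known to express H19. The mean level of 7 markers was -0.34 to -0.29 in AAV8-IGFBP1 and 0.18 to 0.30 in AAV8-Null on the centred log2 scale, and their summed level was 43.2 to 45.8 CPM in AAV8-IGFBP1 and 55.3 to 66.7 CPM in AAV8-Null. Of the 7 markers 6 lay below 0 in log2 fold change. By edgeR 1 passed, the proteoglycan gene Sdc4, with an adjusted p of 0.0162 and a log2 fold change of -0.99 with SE 0.13. By limma-voom 1 of the 7 passed, by DESeq2 3, and 5 had an unadjusted edgeR p under 0.05. Of all genes tested, 3.02% passed by DESeq2 and 12.6% had such an unadjusted p. The gap in the summed level rested on Sdc4. Without it, a sum taken after the values were seen, the other 6 markers summed to 28.9 to 30.7 CPM in AAV8-IGFBP1 and 30.0 to 32.3 CPM in AAV8-Null, which overlap. Most of that sum was Cdh15, a cadherin gene and the most abundant of the 7 in AAV8-IGFBP1. Cdh15 was the 1 marker that went the other way, at 20.4, 21.1 and 24.1 CPM in AAV8-IGFBP1 and 17.8, 19, 18.6 and 19.8 CPM in AAV8-Null (log2 fold change 0.22, SE 0.08, edgeR adjusted p = 0.285). The Cdh15 groups did not overlap. Among the less abundant markers, Pax7 and Fgfr4 were lower in each AAV8-IGFBP1 library than in any AAV8-Null library. Their log2 fold changes were -0.92 (SE 0.18, edgeR adjusted p = 0.0635) and -1.08 (SE 0.22, edgeR adjusted p = 0.0678). Myf5, Chodl and Vcam1 overlapped between the groups. Of all genes tested, 12.3% had groups that did not overlap, 6.01% with AAV8-IGFBP1 lower. The levels of 6 smooth muscle and pericyte markers did not overlap either, at -0.49 to -0.24 in AAV8-IGFBP1 and 0.05 to 0.51 in AAV8-Null. Their summed level was 198 to 219 CPM in AAV8-IGFBP1 and 206 to 275 CPM in AAV8-Null, which overlap, and 5 of the 6 lay below 0. By edgeR 1 passed, the actin-binding protein gene Tagln (log2 fold change -1.10, SE 0.12 and edgeR adjusted p = 0.00778). By limma-voom 1 of the 6 passed, by DESeq2 3, and 4 had an unadjusted edgeR p under 0.05. Acta2, Myh11 and Cnn1 had log2 fold changes of -1.20, -0.64 and -1.13. Most of the summed level was Rgs5, at 160 to 176 CPM in AAV8-IGFBP1 and 147 to 203 CPM in AAV8-Null. The log2 fold change of Rgs5 was -0.10 (SE 0.10), and Kcnj8 was the 1 marker of the 6 above 0 (0.14, SE 0.21). The mean level of 5 Schwann cell markers was -0.38 to -0.16 in AAV8-IGFBP1 and -0.12 to 0.40 in AAV8-Null, with summed levels of 30.3 to 35.3 CPM in AAV8-IGFBP1 and 36.7 to 54.2 CPM in AAV8-Null; all 5 lay below 0, and 0 passed by edgeR or limma-voom, 2 by DESeq2 and 3 at an unadjusted edgeR p under 0.05. Of 8 fibro-adipogenic progenitor markers 7 lay below 0. By edgeR 1 passed, the collagen gene Col15a1 (log2 fold change -0.75, SE 0.08 and edgeR adjusted p = 0.00729). By limma-voom 1 of these 8 markers passed, by DESeq2 3, and 4 had an unadjusted edgeR p under 0.05. Their summed level was 139 to 178 CPM in AAV8-IGFBP1 and 192 to 247 CPM in AAV8-Null, while their mean levels overlapped, at -0.41 to -0.03 in AAV8-IGFBP1 and -0.04 to 0.37 in AAV8-Null. Of these 8 markers, DESeq2 passed Col15a1, Pi16 and Smoc2, and how far the sum rests on those 3 was not tested. Pdgfra (log2 fold change -0.08, SE 0.20), Dpp4 (-0.01, SE 0.23) and Ly6a (0.05, SE 0.20) lay near 0. Cd34 and Dpt lay at -0.28 (SE 0.10) and -0.35 (SE 0.23). All 7 slow fibre markers lay below 0, with mean levels of -1.69 to -0.02 in AAV8-IGFBP1 and -0.35 to 1.23 in AAV8-Null and sums of 243 to 800.2 CPM in AAV8-IGFBP1 and 567 to 1813 CPM in AAV8-Null. Of these 7, 0 passed by edgeR or limma-voom, 1 by DESeq2 and 4 at an unadjusted edgeR p under 0.05. The lowest count of any marker of the lists above in any library was 9. All 7 tenocyte, all 5 endothelial and all 5 macrophage markers also lay below 0, and 0 of them passed by edgeR, DESeq2 or limma-voom. Of 6 myofibre markers 5 lay above 0, as did all 7 adipocyte markers. Of all 14935 genes tested, 7486 lay below 0. The part of any of these cell types in the H19 values was not tested, and in bulk muscle fewer cells of a type and less RNA per cell cannot be told apart.

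**Figure D2:**
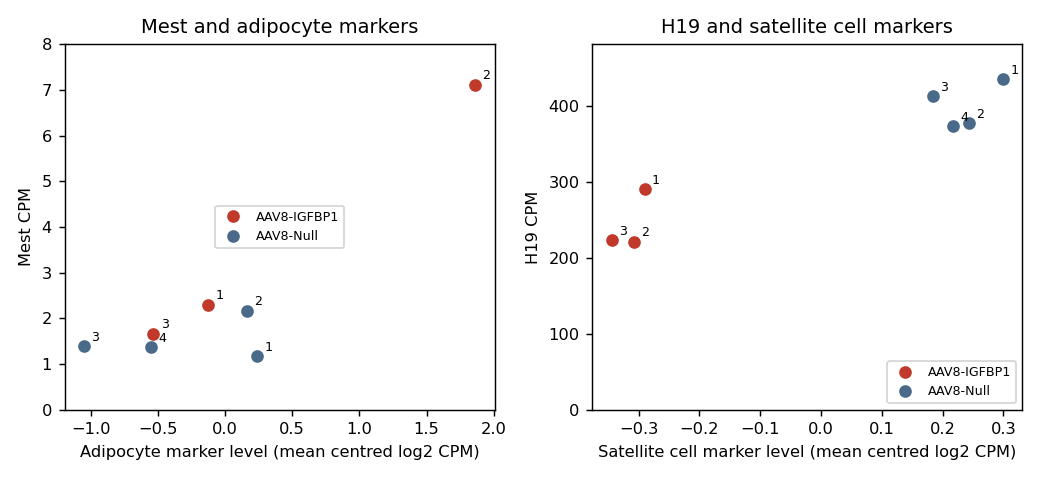
Left, Mest CPM against the adipocyte marker level, and right, H19 CPM against the satellite cell marker level (mean log2 CPM of the markers, centred over the 7 libraries), with AAV8-IGFBP1 in red, AAV8-Null in blue and points numbered by replicate. AAV8-IGFBP1 replicate 2 is alone at an adipocyte level of 1.86 and 7.11 CPM of Mest, and the groups stand apart on both axes for H19.

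The noncoding RNAs of chromosome 12 overlapped between the vector groups. Meg3 had 8.19, 8.54 and 8.37 CPM in AAV8-IGFBP1 replicates 1, 2 and 3, against 7.02, 6.79, 12.4 and 11.8 CPM in AAV8-Null replicates 1 to 4. The AAV8-IGFBP1 libraries lay close together, between a lower pair (replicates 1 and 2) and a higher pair (replicates 3 and 4) of AAV8-Null. The log2 fold change was -0.18 with an SE of 0.23 (edgeR adjusted p = 0.814). Rian, a host of small nucleolar RNAs and microRNAs, had 6.60, 4.50 and 3.79 CPM in AAV8-IGFBP1 and 3.50, 3.71, 6.23 and 6.04 CPM in AAV8-Null, with overlapping groups and a log2 fold change of 0.03 with an SE of 0.27 (edgeR adjusted p = 0.978). AAV8-Null replicates 3 and 4 were again the higher pair of their group, and AAV8-IGFBP1 replicate 1 was the highest library of all 7. Mirg, the microRNA-containing gene at the end of the cluster, had 7 to 24 counts in AAV8-IGFBP1 and 7 to 25 counts in AAV8-Null, so counting error alone is wide. Its CPM was 0.152, 0.581 and 0.221 in AAV8-IGFBP1 and 0.417, 0.329, 0.655 and 0.170 in AAV8-Null, with overlapping groups (log2 fold change -0.31, SE 0.56, edgeR adjusted p = 0.870). Without AAV8-IGFBP1 replicate 2 the log2 fold change of Mirg was -1.05.

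Dlk1, the paternally expressed gene of this domain, encodes a transmembrane protein that restrains fat cell differentiation and affects muscle growth. It had 0.521, 0.484 and 0.221 CPM in AAV8-IGFBP1, against 0.537, 0.599, 0.471 and 0.389 CPM in AAV8-Null. AAV8-IGFBP1 replicate 3, with 10 counts, was the lowest library and the others overlapped (log2 fold change -0.30, SE 0.36, edgeR adjusted p = 0.795). Without that library the log2 fold change of Dlk1 was 0.00.

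Among the 6 pairs of these 4 genes, Meg3 and Rian had the highest r over the 7 libraries. Their log2 CPM had a Pearson r of 0.74 (exact permutation p = 0.0762, adjusted over the 6 pairs 0.457) and a Spearman rho of 0.61 (exact permutation p = 0.167, adjusted 0.50), both two-sided and above 0.05. The r was 0.77 with values centred within each group and 0.53 without AAV8-Null replicates 3 and 4, the libraries farthest from the median of Meg3, so the relation leans on that pair. The ratio of Meg3 to Rian counts was 1.24 in AAV8-IGFBP1 replicate 1 and 1.83 to 2.21 in the other 6 libraries, and without AAV8-IGFBP1 replicate 1 the r was 0.97. Dlk1 and Meg3 had a rho of -0.75 (exact permutation p = 0.0663, adjusted 0.398) and an r of -0.26, which was -0.85 when AAV8-IGFBP1 replicate 3 was left out and -0.79 when AAV8-Null replicate 2 was left out as well. The other 4 pairs had rho between -0.36 and 0.29, with exact permutation p-values of 0.444 to 0.840. These 5 pairs had r between -0.26 and 0.32, with exact permutation p-values of 0.541 to 0.926, and with fewer than 6 libraries a group no r can be given within a group.

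Cdkn1c, a maternally expressed gene, encodes the cyclin-dependent kinase inhibitor p57, which stops the cell cycle as muscle cells differentiate. Cdkn1c had 14.0, 17.6 and 12.4 CPM in AAV8-IGFBP1 and 11.9, 13, 16.3 and 14.8 CPM in AAV8-Null. The groups overlapped, with the highest library in AAV8-IGFBP1 and the lowest in AAV8-Null (log2 fold change 0.07, SE 0.14, edgeR adjusted p = 0.887).

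Peg3, also called Pw1, encodes a paternally expressed zinc-finger protein found in satellite cells and in interstitial cells of mouse muscle. Peg3 had 26.3, 32.0 and 22.4 CPM in AAV8-IGFBP1, against 22.7, 16.1, 21.6 and 24.9 CPM in AAV8-Null. Of the AAV8-IGFBP1 libraries, replicates 1 and 2 lay above every AAV8-Null library and replicate 3 among them. The mean was 26.9 ± 4.81 CPM in AAV8-IGFBP1 (SD, n = 3) and 21.3 ± 3.77 CPM in AAV8-Null (SD, n = 4), with a log2 fold change of 0.34 and an SE of 0.17 (edgeR adjusted p = 0.466). It was 0.19 without AAV8-IGFBP1 replicate 2, the library rich in adipocyte markers and in Igfbp1, and 0.22 without AAV8-Null replicate 2. The mean satellite cell marker level was lower in AAV8-IGFBP1, while the marker sum without Sdc4 overlapped and Cdh15 went the other way. The part of satellite cells in the Peg3 values was not tested. Plagl1, also called Zac1, encodes a paternally expressed zinc-finger factor that binds other imprinted loci. Plagl1 had 1.06, 1.28 and 1.02 CPM in AAV8-IGFBP1 and 1.21, 1.24, 1.20 and 0.852 CPM in AAV8-Null, with a log2 fold change of -0.01 and an SE of 0.22 (edgeR adjusted p = 0.992).

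Mest had the largest fold change of the 10, and AAV8-IGFBP1 replicate 2 decided it. Mest, with 2 of the motifs in its promoter window and also called Peg1, is paternally expressed, encodes a hydrolase-fold protein and is known to be induced in expanding mouse fat. Mest had 2.30, 7.11 and 1.66 CPM in AAV8-IGFBP1 replicates 1, 2 and 3, against 1.17, 2.17, 1.39 and 1.36 CPM in AAV8-Null replicates 1 to 4. AAV8-IGFBP1 replicate 2 stood far above the other 6 libraries, and replicate 3 of that group lay below AAV8-Null replicate 2. Copg2 runs in antisense past the end of Mest, and without a stated strand setting their reads may not be told apart. The log2 fold change was 1.27 with an SE of 0.52 (edgeR adjusted p = 0.382), and it was 0.38 (SE 0.28, edgeR adjusted p = 0.700) without AAV8-IGFBP1 replicate 2. The same library had the highest level of all 7 adipocyte markers together. Their summed level ran from 302 to 1463 CPM in AAV8-IGFBP1 and from 241 to 481 CPM in AAV8-Null, and none was at 0 counts. All 7 lay above 0 in log2 fold change, and 0 passed by edgeR, DESeq2 or limma-voom or had an unadjusted edgeR p under 0.05. Among the other 6 libraries, AAV8-Null replicate 1 had the highest mean adipocyte level (0.24) and the lowest Mest (1.17 CPM). AAV8-Null replicate 2 had 2.17 CPM of Mest at a level of 0.16, and AAV8-IGFBP1 replicate 1 had 2.30 CPM at -0.13. AAV8-IGFBP1 replicate 2 also had the most Igfbp1, at 34.5 CPM against 4.39 and 3.14 CPM in AAV8-IGFBP1 replicates 1 and 3. The part of fat or of the Igfbp1 level in the Mest values was not tested, and 1 library cannot tell them apart.

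**Figure D3:**
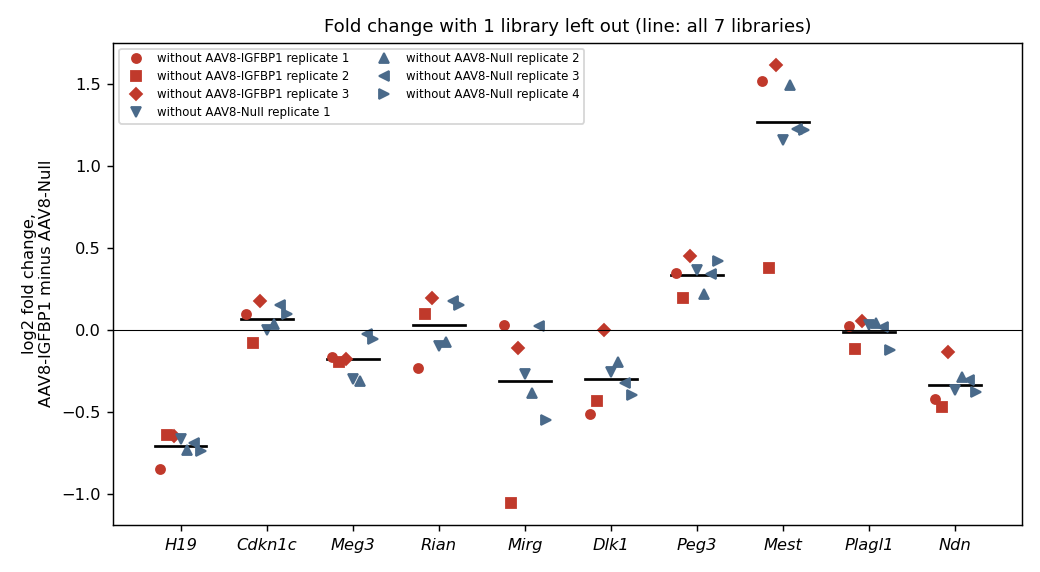
Log2 fold change (AAV8-IGFBP1 minus AAV8-Null) of each of the 10 genes with all 7 libraries (black line) and with each library left out in turn, red where an AAV8-IGFBP1 library and blue where an AAV8-Null library was left out. H19 stays between -0.85 and -0.64, and Mest drops to 0.38 without AAV8-IGFBP1 replicate 2.

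Ndn, which encodes the paternally expressed growth suppressor necdin, had 2.63, 2.78 and 1.66 CPM in AAV8-IGFBP1, against 2.78, 3.25, 3.17 and 2.68 CPM in AAV8-Null. AAV8-IGFBP1 replicate 3 was the lowest library and replicate 2 lay inside the AAV8-Null range. The log2 fold change was -0.33 with an SE of 0.19 (edgeR adjusted p = 0.528), and -0.13 without AAV8-IGFBP1 replicate 3. That library was also the lowest in Dlk1 and was the lowest of all in tenocyte markers, at -1.38 where the remaining 6 lay between -0.18 and 1.00. It was lowest too in macrophage markers (-0.65, with the rest between -0.25 and 0.32) and in fibro-adipogenic progenitor markers (-0.41, with the rest between -0.16 and 0.37). The part of these cells in the Ndn and Dlk1 values was not tested.

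**Figure D4:**
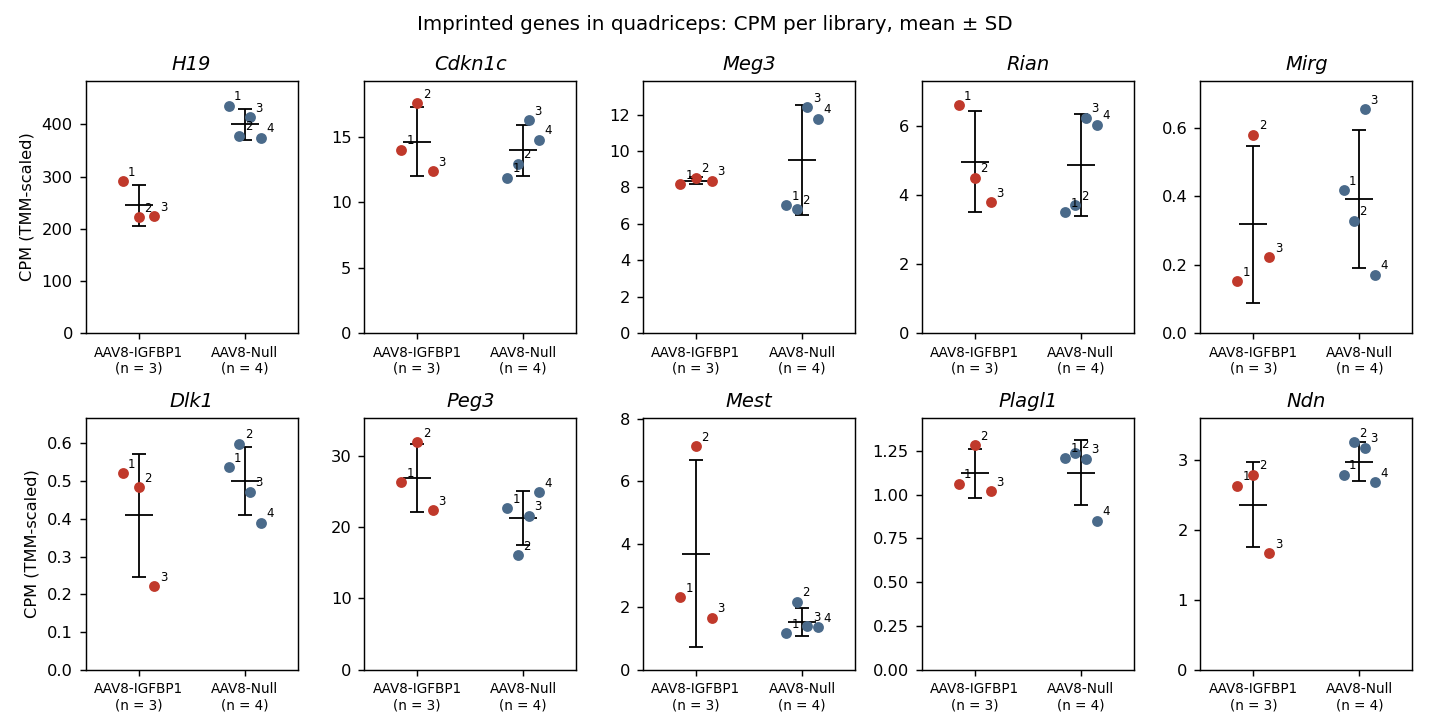
CPM of each imprinted gene per library (TMM-scaled, linear axes from 0), AAV8-IGFBP1 in red on the left and AAV8-Null in blue on the right of each panel, points numbered by replicate, black marks for the mean ± SD. H19 is the panel in which the groups do not overlap, and Mest shows AAV8-IGFBP1 replicate 2 at 7.11 CPM.

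Over the 10 genes the median log2 fold change was -0.09, with 4 above 0 and 6 below, where the median of all 14935 genes tested was -0.00065. Of the 5 maternally expressed genes 2 lay above 0 (median -0.18), and of the 5 paternally expressed genes 2 lay above 0 (median -0.01). Except for H19 and Mest, each of the 10 had a log2 fold change within 0.5 of 0, as had 13232 of all 14935 genes tested. The median coefficient of variation within a group was 22.0% in AAV8-IGFBP1 and 17.8% in AAV8-Null for the 10 genes, against 10.1% and 11.3% for all genes tested in the same groups. Dlk1 and Mirg, at 7 to 31 counts per library, carry the widest counting error.

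**Figure D5:**
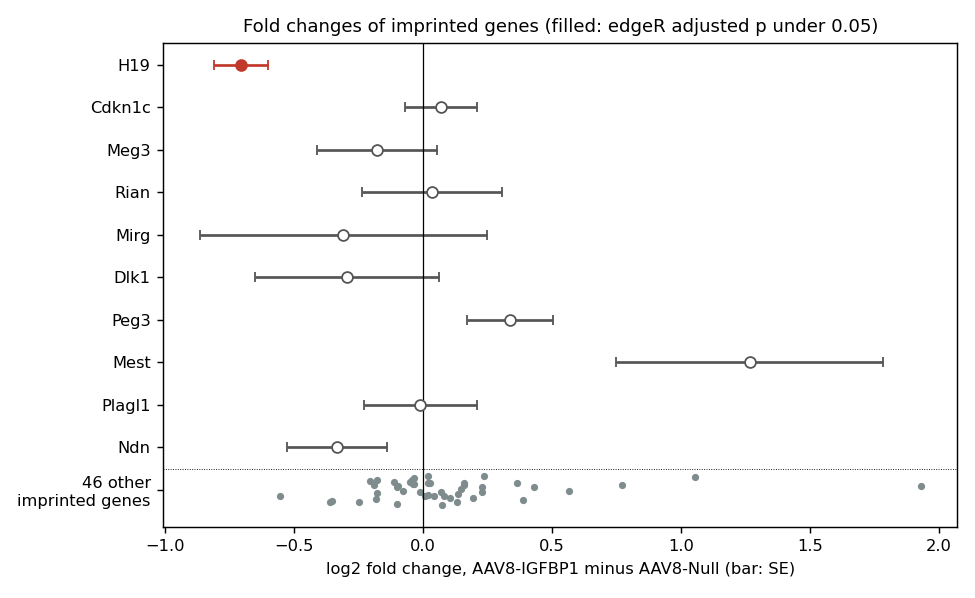
Log2 fold change (AAV8-IGFBP1 minus AAV8-Null, linear axis) of each of the 10 genes with its SE as a bar, and of 46 other imprinted genes as grey points with no error shown (their height is random). The filled point, H19 at -0.71, is the gene past edgeR's threshold, and Mest lies at 1.27 with an SE of 0.52.

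Levels between genes were compared per length, using the longest GENCODE M21 transcript of each gene (an annotation of GRCm38, while the counts were made on GRCm39). H19 had 107 CPM per kb in AAV8-IGFBP1 and 175 CPM per kb in AAV8-Null. Next came Cdkn1c, at 7.71 and 7.36 CPM per kb in AAV8-IGFBP1 and AAV8-Null, and Peg3, at 3.09 and 2.45 CPM per kb. The order of these 3 was the same with the merged length of all exons. Ndn, Meg3, Rian and Mest lay between 0.575 and 1.39 CPM per kb in AAV8-IGFBP1 and between 0.571 and 0.804 CPM per kb in AAV8-Null, and their order changed with group and length. Plagl1, Dlk1 and Mirg were the lowest, at 0.0832 to 0.213 CPM per kb in AAV8-IGFBP1 and 0.103 to 0.214 CPM per kb in AAV8-Null.

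The profiles of the 10 genes over the 7 libraries were compared with those of 10704 or 10705 other genes whose log2 CPM averaged 1 or more, as a description with no p, since 7 points allow many high values. Each r pools both groups without centring, so a group difference or 1 outlying library enters it. The genes most like H19 were Nfkb2 (Pearson r of log2 CPM 0.996), Plxnd1 (0.99) and Pus3 (0.98). Those most like Mest were Mpeg1 (0.99), Coro1a (0.99) and Plpp6 (0.98), and those most like Meg3 were Rac1 (0.98), Mill2 (0.96) and Rbm6 (0.95). Peg3 was most like Kdm4a (0.98), Tgtp2 (0.98) and Atp6v1h (0.98), and Ndn most like A130010J15Rik (0.997), Tada3 (0.99) and Anxa2 (0.99). Cdkn1c was most like Inpp5d (0.96), Calr (0.95) and Nfia (0.95), and Rian most like Tenm3 (0.97), Dop1a (0.96) and Gm2574 (0.96). Dlk1 was most like Flrt2 (0.97), Rgl1 (0.95) and Itih5 (0.95), Mirg most like Rbm15b (0.96), B3glct (0.96) and Dnajb14 (0.95), and Plagl1 most like Tgfbr2 (0.98), Pja1 (0.95) and Cnpy4 (0.95). Among the 10 genes themselves the highest r was between Dlk1 and Ndn (0.92), with 23 other genes more like Dlk1 than Ndn was. AAV8-IGFBP1 replicate 3 was the lowest library in both Dlk1 and Ndn. Between Meg3 and Rian, 293 genes were more like Meg3 than Rian was.

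Other genes known to be imprinted in at least 1 mouse tissue were counted from a list of 66, of which 65 were in the table and 46 were tested. Of these 46, 0 passed edgeR's test, 0 passed DESeq2's and 0 passed limma-voom's, where 0.556% of all genes tested passed edgeR's, 3.02% DESeq2's and 0.415% limma-voom's. An unadjusted edgeR p under 0.05 was found for 3 of the 46 (6.52%), against 12.6% of all genes tested. Of the 46, 26 had a log2 fold change above 0 and 20 below (median 0.02). The groups did not overlap for 2 of 46 (4.35%), Nnat and Gatm, against 12.3% of all genes tested.

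The genes with the lowest unadjusted p were Igf2r, Nnat, Airn, Casd1, Snrpn and Herc3. Igf2r, the maternally expressed receptor that clears IGF2, had 80.4, 80.3 and 90.0 CPM in AAV8-IGFBP1, against 96.7, 89.6, 99.5 and 99.4 CPM in AAV8-Null (log2 fold change -0.20, SE 0.07, edgeR adjusted p = 0.241). Airn, the noncoding RNA that crosses Igf2r in antisense, had a log2 fold change of -0.36 with an SE of 0.16 (edgeR adjusted p = 0.390). Whether the counting used strand is not given in the sources used, so reads of Airn and Igf2r may not be told apart, and neither may those of Nnat and Blcap, the gene around it. Nnat, a paternally expressed proteolipid gene, had 7.47, 34.2 and 8.22 CPM in AAV8-IGFBP1, against 4.51, 3.96, 2.10 and 6.79 CPM in AAV8-Null. Its groups did not overlap, but AAV8-IGFBP1 replicate 2, the library rich in adipocyte markers and in Igfbp1, was again far above the rest. The log2 fold change of Nnat was 1.93 with an SE of 0.70 (edgeR adjusted p = 0.356) and 0.85 without that library. Casd1 (0.16, edgeR adjusted p = 0.405), Snrpn, which encodes a splicing protein (0.15, 0.444), and Herc3 (-0.18, 0.448) had small log2 fold changes.

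H19 and Plagl1 have been described as members of a network of imprinted genes that are expressed together in mouse tissues. Of 15 genes listed for it, 8 of them among the 10, the 1 that passed the test was H19, the call already described, where 0.556% of all genes tested passed. The median log2 fold change of the 15 was -0.08. The other 7, Igf2, Grb10, Igf2r, Dcn, Gatm, Gnas and Sgce, lay between -0.25 and 0.19, and 0 passed by edgeR, DESeq2 or limma-voom (1 had an unadjusted edgeR p under 0.05, Igf2r, as had 12.6% of all genes tested). Grb10, which encodes an adaptor that restrains insulin and IGF receptor signalling, had 30.5, 27.3 and 22.3 CPM in AAV8-IGFBP1 and 22.6, 22.4, 21.8 and 26.7 CPM in AAV8-Null (log2 fold change 0.19, SE 0.11, edgeR adjusted p = 0.528). Gatm, a creatine synthesis gene, had 2.04, 1.84 and 1.97 CPM in AAV8-IGFBP1, against 2.37, 2.07, 2.30 and 2.53 CPM in AAV8-Null, groups that did not overlap (log2 fold change -0.25, SE 0.15, edgeR adjusted p = 0.544). The matrix proteoglycan gene Dcn had -0.10 (SE 0.24), the G protein gene Gnas 0.07 (SE 0.07) and the sarcoglycan gene Sgce -0.08 (SE 0.15) on the same log2 scale.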

How the data were processed

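The RNeasy Mini Kit gave total RNA and Universal Plus mRNA-Seq with NuQuant gave the libraries, per the labels' protocols. The authors deposited estimated counts per gene symbol for 7 libraries, made on GRCm39 with STAR 2.7.9a, Salmon 1.10.1, cutadapt 3.4, Trim Galore 0.6.7 and R 4.2.2 per the submitters' processing notes (tool roles are not stated there). Annotation release and strand setting: not given in the sources used here.

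Estimated counts were rounded. The main test was edgeR 4.0.16 in R 4.3.3: filterByExpr (minimum count 10, minimum total 15), TMM scaling, glmQLFit with robust fitting and glmQLFTest on group, with Benjamini-Hochberg adjustment over 14935 genes and a threshold of 0.05. A standard error is the absolute log2 fold change over the root of the F statistic. CPM are relative to TMM-scaled totals, and log2 CPM use a prior count of 2. A count of 0 allows up to 3 counts (0.0586 to 0.0770 CPM), a limit for counting error alone, because PCR copies were not removed by molecular identifiers. Correlations used exact permutation of pairings. No library repeated another of its group: their counts differed beyond sampling noise (chi-square over degrees of freedom 22.2 to 60.0).

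The members and lists were chosen with earlier results of these data known. The text names all members; of the other imprinted genes, those past the test and the 6 with the lowest p, with Igf2 and Grb10; the network genes; and 3 genes of like profile per member. Nctc1 was named after its values were seen. Alternatives were other scalings, DESeq2 1.42.0, limma-voom (limma 3.58.1), other filters, a threshold of 0.1, a replicate block and left-out libraries. The tests by edgeR, DESeq2 and limma-voom were checked on simulated data with known fold changes. The permutation test was checked on short made-up series only.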

Additional observations from a re-analysis of the deposited data

Results flagged for a closer look

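Of 25 sets of 4 AAV8-Null values examined, 3 had a library far from the other 3 of its group, and it was AAV8-Null replicate 4 each time. Chance flags about 1 in 20 such sets where values are normally distributed and sets independent. These sets share libraries and genes, and some were picked by p, so the 3 cannot be set against that rate. Plagl1 was low there, at 0.852 CPM (35 counts) against 1.20 to 1.24 CPM in AAV8-Null replicates 1 to 3, and without that library its log2 fold change was -0.12 in place of -0.01. Grb10 was high there, at 26.7 CPM against 21.8 to 22.6 CPM, and Casd1 was high there, at 22.6 CPM against 19.3 to 19.7 CPM in AAV8-Null replicates 1 to 3.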

How the results depend on the processing

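H19 was the 1 member called with all libraries, and 0 were called with the replicate number as a block or without both libraries numbered 3; with 1 library left out the count ran from 0 to 1, and the network list gave the same values (0, 0, and 0 to 1). The count of all genes called, 83, was 215 at an adjusted p under 0.1, 451 with DESeq2, 306 with no count filter, 19 with the replicate block, 42 without both libraries numbered 3 and 19 to 86 with 1 library left out (28 when AAV8-IGFBP1 replicate 1 was dropped, 23 for AAV8-IGFBP1 replicate 2, 19 for AAV8-Null replicate 1 and 52 for AAV8-Null replicate 3). The median log2 fold change of the members was 0.16 without both libraries numbered 3, and the cause was not tested. The Meg3 and Rian correlation ran from 0.67 to 0.97 with 1 library left out. The count of other imprinted genes called was 0 under all 16 alternatives. Same-numbered libraries had correlations of deviations of -0.10, 0.07 and -0.06 over genes and did not each correlate best with their own number, so the numbers were not taken to pair the libraries; the H19 log2 fold change under the replicate block was -0.75 (edgeR adjusted p = 0.0640). Dlk1 and Mirg were not tested at a minimum count of 50. At 7 to 31 counts per library, Mirg and Dlk1 allow only large changes to be seen, and Dlk1, Rian, Mirg, Cdkn1c and Plagl1 changed sign under at least 1 alternative, with no call in any of them. No scaling moved the median of all genes by more than 0.1.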
